A study of Arabidopsis thaliana with 20 samples.

Results

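Paclobutrazol (PAC) was given to *Arabidopsis thaliana* seeds of the wild type (WT, Col-0), and their transcript levels were set against those of WT seeds on germination medium alone (MS). The WT PAC and WT MS groups hold 4 of the 20 samples of the experiment, chosen by the genotype and treatment in the sample titles and by the matching group names in the deposited table. WT PAC seeds spent 20 hr on medium with 5 µM PAC, and WT MS seeds spent 20 hr on the same medium without it, with 2 biological replicates in each group. Further groups used here are WT seeds on 5 µM PAC and 10 µM gibberellin (PAC + GA), and *Δdella* seeds, a Col-0 quintuple mutant lacking *RGL2*, *RGA*, *GAI*, *RGL1* and *RGL3*, on 5 µM PAC or on MS, all at 20 hr with 2 replicates each. Whole seeds were harvested, so embryo, endosperm and seed coat were mixed, and a smaller share of a tissue cannot be told apart from less RNA per cell.

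The deposited table gives 1 FPKM value (fragments per unit of transcript length and library size) per gene and group, with the replicates pooled. From pooled values no SD, interval or test could be computed, so no difference below has a replicate check. The authors' own p-values and q-values in the table were left aside. Read numbers per library are unknown from these values. A ratio is log2((FPKM in PAC + 1)/(FPKM in MS + 1)), which understates the change of low genes. It was computed for genes with at least 1 FPKM in 1 or both groups, and a gene is called higher or lower when the ratio is past 2-fold (1 or more in size). A gene under 1 FPKM in 1 group passed this filter only through the group where it is higher.

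Gibberellin (GA) is the hormone that releases seeds from arrest and starts embryo growth. It binds the GID1 receptors, which then capture the DELLA proteins, repressors of GA responses, for destruction through the F-box protein SLY1. PAC blocks ent-kaurene oxidase, an early enzyme of GA synthesis encoded by *GA3*, so that DELLA proteins are kept. Abscisic acid (ABA) acts against GA in seeds and maintains transcripts of maturation, such as those for storage proteins and for late embryogenesis abundant (LEA) proteins.

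The promoters of 4 of the seed maturation genes that were higher in PAC and of 2 cell wall genes that were lower are shown because these genes carry the main contrast of the data. Each run is the 250 bases before the gene start of RefSeq, build TAIR10.1, written 5′ to 3′ on the gene's strand. Capitals mark the core of the ABA response element (ACGTG) and the RY repeat core (CATGCA), on either strand, and a palindrome such as CACGTG counts as 2 copies of ACGTG.
CRU3 promoter (AT4G28520), chr4:14087306-14087555, plus strand: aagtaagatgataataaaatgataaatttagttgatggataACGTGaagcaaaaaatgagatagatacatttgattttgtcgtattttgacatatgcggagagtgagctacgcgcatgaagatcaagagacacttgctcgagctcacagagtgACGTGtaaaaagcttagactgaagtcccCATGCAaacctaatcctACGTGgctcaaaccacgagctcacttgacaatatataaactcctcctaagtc
CRA1 promoter (AT5G44120), chr5:17758337-17758586, minus strand: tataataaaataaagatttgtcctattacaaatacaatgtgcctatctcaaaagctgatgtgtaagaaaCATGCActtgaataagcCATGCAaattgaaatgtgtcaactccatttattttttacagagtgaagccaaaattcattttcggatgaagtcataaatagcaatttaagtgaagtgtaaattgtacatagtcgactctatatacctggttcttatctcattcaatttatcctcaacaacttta
EM1 promoter (AT3G51810), chr3:19214472-19214721, plus strand: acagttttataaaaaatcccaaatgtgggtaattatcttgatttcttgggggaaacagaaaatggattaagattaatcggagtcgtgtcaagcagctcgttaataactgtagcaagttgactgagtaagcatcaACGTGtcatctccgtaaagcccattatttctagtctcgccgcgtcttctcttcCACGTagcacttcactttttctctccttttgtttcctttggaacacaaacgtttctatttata
EM6 promoter (AT2G40170), chr2:16780369-16780618, minus strand: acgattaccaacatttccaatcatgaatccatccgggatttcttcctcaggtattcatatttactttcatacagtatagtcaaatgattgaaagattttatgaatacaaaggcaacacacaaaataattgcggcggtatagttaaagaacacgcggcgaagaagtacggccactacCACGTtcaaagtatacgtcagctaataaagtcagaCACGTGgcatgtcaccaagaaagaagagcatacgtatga
EXPA2 promoter (AT5G05290), chr5:1568444-1568693, plus strand: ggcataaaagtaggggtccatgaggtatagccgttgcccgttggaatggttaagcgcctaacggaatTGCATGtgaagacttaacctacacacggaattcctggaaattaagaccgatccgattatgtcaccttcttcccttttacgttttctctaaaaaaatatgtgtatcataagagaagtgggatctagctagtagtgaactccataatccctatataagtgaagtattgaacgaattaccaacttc
XTH31 promoter (AT3G44990), chr3:16448845-16449094, minus strand: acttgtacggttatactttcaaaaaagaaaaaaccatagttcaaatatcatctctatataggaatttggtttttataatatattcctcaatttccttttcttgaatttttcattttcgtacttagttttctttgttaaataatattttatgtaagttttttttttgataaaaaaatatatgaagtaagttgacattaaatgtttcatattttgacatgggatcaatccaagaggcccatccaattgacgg
In these windows the *CRU3* promoter held 3 copies of ACGTG and 1 of CATGCA, the *CRA1* promoter 0 and 2, the *EM1* promoter 2 and 0, and the *EM6* promoter 3 and 0. The *EXPA2* promoter held 0 copies of ACGTG and 1 of CATGCA, and the *XTH31* promoter held 0 of either. A match is a description of the letters, not a binding site. In the RefSeq annotation of TAIR10.1, *CRU3* lies at chr4:14087556-14089796, *CRA1* at chr5:17756238-17758336, *EXPA2* at chr5:1568694-1569915 and *XTH31* at chr3:16446935-16448844.

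Of 16846 genes with at least 1 FPKM in WT PAC or WT MS, 547 (3.25%) were higher and 727 (4.32%) were lower in PAC, 1274 (7.56%) in all. The list counts below are to be read beside these shares. The median ratio was 0.01 and the SD of the ratios across genes was 0.62. The changes were not confined to weakly expressed genes. Among genes with a mean of 1 to 5 FPKM 10.2% were past 2-fold, and among the 1443 genes with a mean of 100 FPKM or more 6.58% were. The same treatment of *Δdella* seeds, which shares no library with the WT comparison, moved 135 of 16997 genes (0.794%) past 2-fold, 74 higher (0.435%) and 61 lower (0.359%). Short RNA genes (snoRNA, miRNA and tRNA) were erratic in both genotypes, with 41 of 73 past 2-fold in WT and 41 of 75 in *Δdella* seeds. When only protein-coding genes that reached 1 FPKM in each of the 2 groups were counted, 914 of 15482 genes were past 2-fold in WT seeds (405 higher and 509 lower) and 17 of 16086 in *Δdella* seeds.

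**Figure D1:**
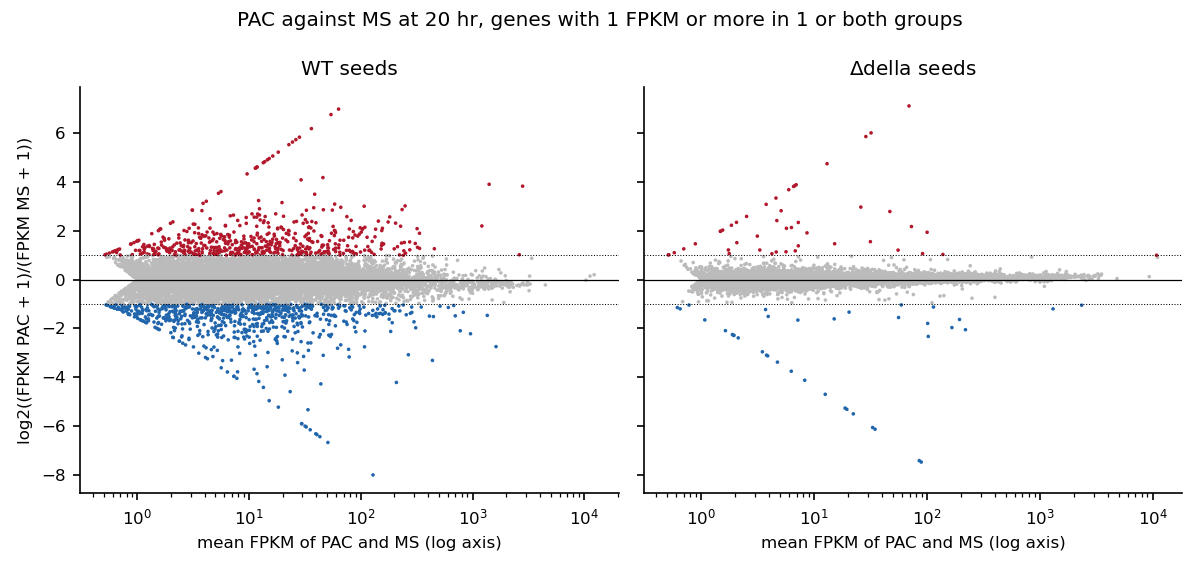
Ratio of PAC to MS against the mean FPKM of the 2 groups (log axis), 1 point per gene, for WT seeds on the left and *Δdella* seeds on the right; red points are past 2-fold higher, blue points past 2-fold lower, and dotted lines mark 2-fold. In WT seeds 1274 of 16846 genes lie outside the dotted lines, at all levels. Both panels draw only genes with 1 FPKM or more in WT PAC or WT MS. The right panel draws those that also reach 1 FPKM in 1 or both *Δdella* groups. The 16997 genes of the *Δdella* comparison, 135 of them past 2-fold, thus include genes not drawn here. The straight diagonal edges are genes listed at 0 in 1 group.

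The labelled tissue was checked against marker genes. *EPR1*, an extensin-like gene of the endosperm, had 1201 FPKM in PAC and 932 FPKM in MS, and the other 6 endosperm markers, which act in early seed development, stayed under 1 FPKM in both groups. The 5 seed coat markers and 2 pollen markers were also under 1 FPKM in both groups. The 2 leaf or seedling markers both passed the filter. They summed to 1972 FPKM in PAC and 1483 FPKM in MS, with neither past 2-fold. The 4 embryo epidermis markers summed to 342 FPKM in PAC and 600 FPKM in MS, with *PDF1* the only member past 2-fold. All 133 chloroplast and 146 mitochondrial genes of the table were listed at 0 in both groups. Of the genes targeted in the mutant, *RGL2* and *RGA* are given here. *RGL2* had 4.91 FPKM in *Δdella* PAC and 5.36 FPKM in *Δdella* MS seeds, against 147 FPKM in WT PAC and 170 FPKM in WT MS seeds. *RGA* kept 22.1 and 21.8 FPKM in the same mutant groups, against 43.8 and 85.9 FPKM in WT.

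The GA synthesis genes that lay past 2-fold were higher in PAC. Of the 14 list members 11 passed the filter, 6 were higher, none was lower, and the median ratio was 1.03. The earliest step is the cyclase encoded by *GA1*, which had 3.16 FPKM in PAC and 0.24 FPKM in MS. *GA3*, which encodes the enzyme that PAC inhibits, had 177 FPKM in PAC and 86.1 FPKM in MS, a ratio of 1.03. The remaining early genes stayed under 2-fold: *GA2* had 4.43 FPKM in PAC and 2.79 FPKM in MS, *KAO2* 59.2 and 36.5 FPKM, and *KAO1* 11.1 and 12.8 FPKM, in the same order. The 3-oxidase gene *GA3OX4* was near the filter, with 1.05 FPKM in PAC and 0.629 FPKM in MS.

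The 20-oxidases act late in the pathway, and *GA20OX2* and *GA20OX3* had the largest ratios of the list, 3.50 and 3.02. *GA20OX3* had 444 FPKM in PAC and 53.7 FPKM in MS, 8.26-fold higher. *GA20OX2* had 71.9 FPKM in PAC and 5.43 FPKM in MS, 13.2-fold higher. *GA20OX1* had 51.3 FPKM in PAC and 15.5 FPKM in MS, a ratio of 1.66 that lay below those of *GA3OX1* (2.02) and *GA1* (1.74). The final step to active GA is made by 3-oxidases, and here the paralogs differed. *GA3OX1* had 93.9 FPKM in PAC and 22.4 FPKM in MS, whereas *GA3OX2* had 94.6 FPKM in PAC and 122 FPKM in MS, a ratio of -0.37. Among the 7 genes of the 2-oxidases that break GA down, only *GA2OX8* reached 1 FPKM, at 1.16 FPKM in MS, and it was listed at 0 in PAC.

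The receptors and the DELLA genes lay on opposite sides of 0. *GID1A* had 49.5 FPKM in PAC and 22.2 FPKM in MS, and *GID1B* had 6.29 FPKM in PAC and 1.77 FPKM in MS, both past 2-fold. *GID1C* had 10.08 FPKM in PAC and 6.48 FPKM in MS, and the F-box gene *SLY1* had 56.7 FPKM in PAC and 30.4 FPKM in MS, ratios of 0.57 and 0.88. *SNE*, a relative of *SLY1*, had 5.03 FPKM in PAC and 3.31 FPKM in MS. Of the 5 DELLA genes only *GAI* was past 2-fold, with 29.1 FPKM in PAC and 70.2 FPKM in MS. *RGA* and *RGL3* had ratios of -0.96 and -0.85, and *RGL1* and *RGL2* of -0.22 and -0.21. *RGL2*, the DELLA gene best known in seeds, was the most abundant of the 5 in both groups. In all, 2 of the 10 members of this list were higher and 1 was lower.

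**Figure D2:**
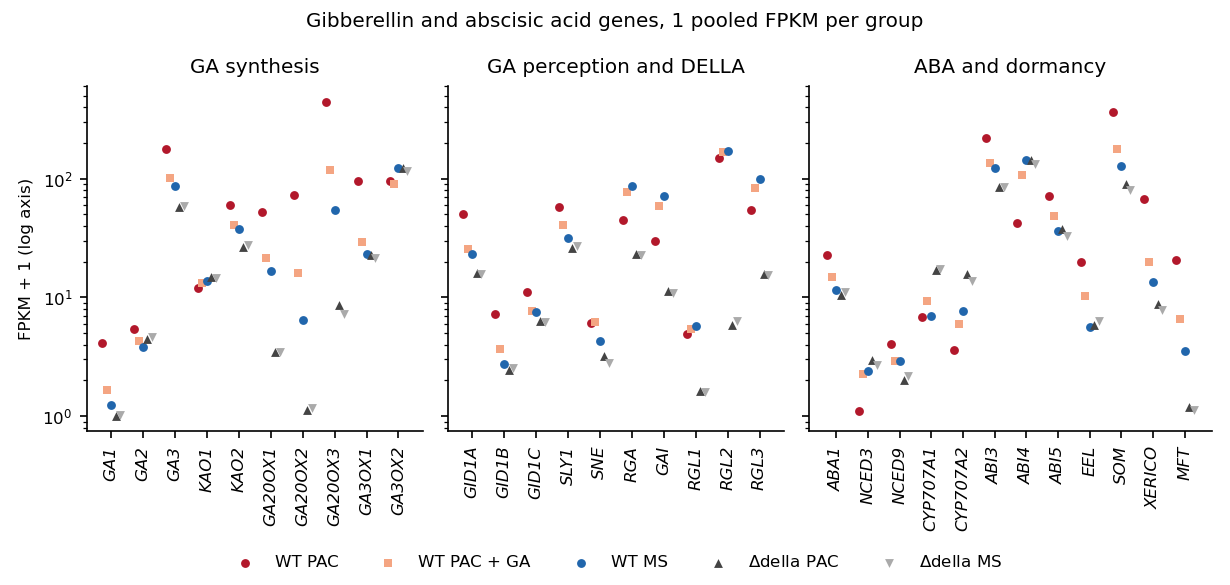
FPKM + 1 (log axis) of GA synthesis genes, GA perception and DELLA genes, and ABA and dormancy genes, 1 pooled value per group: WT PAC (red circles), WT PAC + GA (orange squares), WT MS (blue circles), *Δdella* PAC (dark triangles) and *Δdella* MS (light triangles). The red circle of *GA20OX3* stands at 444 FPKM against 53.7 FPKM for WT MS, and the *Δdella* triangles of each gene lie close to each other.

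ABA genes did not move as a block. Of 13 genes of ABA synthesis and breakdown 9 passed the filter, none was higher and 2 were lower, both at low levels. *NCED3*, a 9-cis-epoxycarotenoid dioxygenase of ABA synthesis, had 0.111 FPKM in PAC and 1.42 FPKM in MS. *CYP707A2*, a hydroxylase that breaks ABA down in seeds, had 2.6 FPKM in PAC and 6.68 FPKM in MS. *ABA1*, the zeaxanthin epoxidase of ABA synthesis, had 21.7 FPKM in PAC and 10.7 FPKM in MS, a ratio of 0.96. The hydroxylase gene *CYP707A3* had 3.94 FPKM in PAC and 7.57 FPKM in MS, a ratio of -0.79. The other 5 that passed the filter, *ABA2*, *ABA3*, *NCED9*, *AAO3* and *CYP707A1*, had ratios of -0.37, 0.47, 0.47, -0.19 and -0.03.

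In ABA signalling 16 of 17 genes passed the filter, 2 were higher and 1 was lower, with a median ratio of 0.12. Over all genes 3.25% were higher and 4.32% were lower. *EEL*, a bZIP factor of late seed maturation, had 18.99 FPKM in PAC and 4.62 FPKM in MS. *HAI2*, a protein phosphatase of type 2C, had 23.5 FPKM in PAC and 8.08 FPKM in MS. *ABI4*, an AP2-domain factor of ABA responses, went the other way, with 41.7 FPKM in PAC and 143 FPKM in MS. *ABI5*, the bZIP factor that arrests growth after germination, had 70.4 FPKM in PAC and 35.0 FPKM in MS, a ratio of 0.99 that lies just inside the 2-fold line. *ABI3*, the B3 factor of seed maturation, had 218 FPKM in PAC and 122 FPKM in MS, a ratio of 0.84. The SnRK2 kinase genes *SNRK2.2* and *SNRK2.3* had ratios of 0.11 and 0.13.

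Regulators of dormancy and maturation were higher where they moved. Of 11 members 8 passed the filter, 4 were higher, none was lower, and the median ratio was 0.93. *SOM*, a CCCH zinc finger gene that represses germination in the dark, had 364 FPKM in PAC and 126 FPKM in MS. *XERICO*, a RING-H2 gene that promotes ABA accumulation, had 66.9 FPKM in PAC and 12.5 FPKM in MS. *MFT*, a phosphatidylethanolamine-binding protein gene of seed germination, had 19.7 FPKM in PAC and 2.5 FPKM in MS. *FUS3*, a B3 factor of embryo maturation, reached only 1.28 FPKM in PAC and 0.13 FPKM in MS. *DOG1*, the dormancy gene, was similarly near the filter at 1.11 FPKM in PAC and 0.177 FPKM in MS. Both *FUS3* and *DOG1* passed the filter only through their level in PAC, and without a filter the list median was 0.31. *PIL5*, a phytochrome-interacting factor, had 97.0 FPKM in PAC and 77.9 FPKM in MS, and *SPT*, a related bHLH gene, had 28.1 FPKM in PAC and 50.4 FPKM in MS, a ratio of -0.82.

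Seed maturation genes were higher in PAC. All 10 storage protein genes had ratios above 0, and 9 were past 2-fold, with a median of 1.62. Their FPKM summed to 9230 in PAC and 939 in MS, or 1.05% and 0.102% of all FPKM in these groups. The 12S globulin genes *CRA1* and *CRU3* made most of this sum. *CRA1* had 5245 FPKM in PAC and 367 FPKM in MS, 14.3-fold higher, and *CRU3* had 2639 FPKM in PAC and 175 FPKM in MS, 15.1-fold higher. The paralog *CRB* had 55.7 FPKM in PAC and 18.6 FPKM in MS. The 7S-type vicilin gene *PAP85* had 168 FPKM in PAC and 39.2 FPKM in MS. The 2S albumin genes *SESA1* to *SESA5* had ratios between 1.47 and 2.19, and as *SESA1* to *SESA4* are similar tandem neighbours, 50 bp reads may be split between them, so their single values are uncertain.

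Of 27 LEA and dehydrin genes, all passing the filter, 20 were higher and 2 were lower, with a median of 1.55. *LEA18* was the most abundant, with 1990 FPKM in PAC and 432 FPKM in MS. *RAB18*, an ABA-responsive dehydrin, had 517 FPKM in PAC and 121 FPKM in MS. *EM1* had 129 FPKM in PAC and 20.7 FPKM in MS, and *EM6* had 137 FPKM in PAC and 34.3 FPKM in MS. The 2 lower members were the cold-induced dehydrins *COR47*, with 61.9 FPKM in PAC and 132 FPKM in MS, and *ERD10*, with 2.56 and 6.36 FPKM in the same order. Among oil body genes, which encode the proteins that coat stored oil, all 7 that passed the filter were higher, with a median of 1.86. *OLEO1*, an oleosin, had 342 FPKM in PAC and 67.7 FPKM in MS, and the caleosin *CLO1* had 23.4 FPKM in PAC and 5.72 FPKM in MS. Aquaporins of the storage vacuole were higher too: *TIP3;1* had 61.4 FPKM in PAC and 14.7 FPKM in MS, and *BETA-TIP* had 52.2 FPKM in PAC and 7.46 FPKM in MS.

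**Figure D3:**
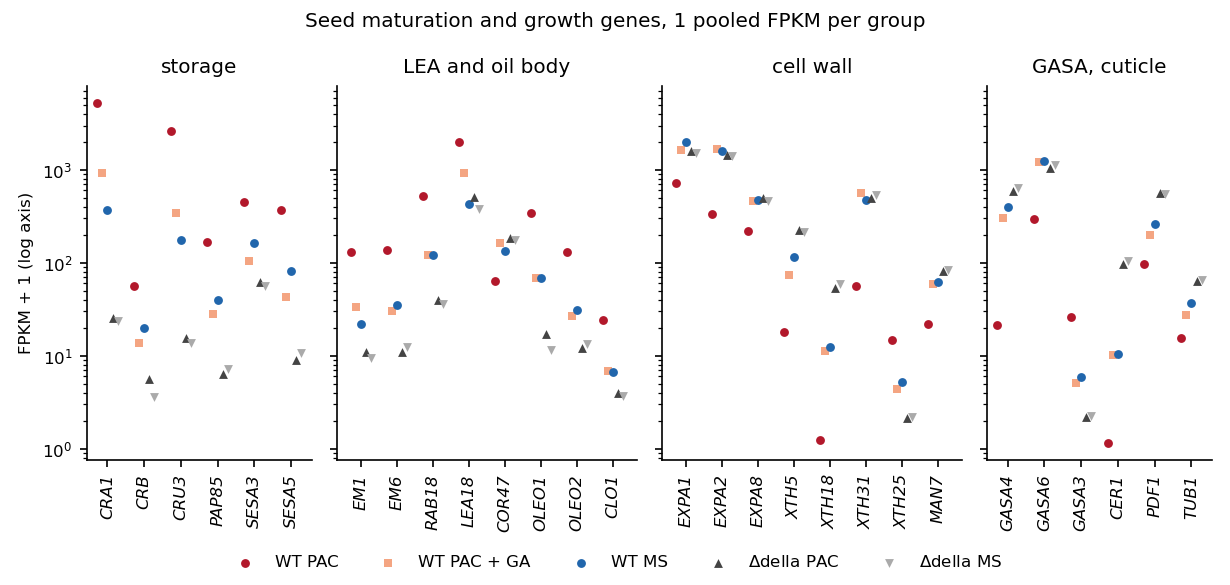
FPKM + 1 (log axis) of storage, LEA and oil body genes and of cell wall, GASA and cuticle genes, 1 pooled value per group, with the symbols of the hormone gene plot. For *CRA1* WT PAC stands at 5245 FPKM and WT MS at 367 FPKM; for *GASA4* WT PAC stands at 20.3 FPKM and WT MS at 396 FPKM.

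Most genes of cell wall loosening that passed the filter were lower in PAC. Expansins are proteins that loosen the wall without cutting it. Of 25 expansin genes 11 passed the filter, 7 were lower and none was higher, with a median of -1.12. *EXPA1* had 719 FPKM in PAC and 1990 FPKM in MS. *EXPA2*, an expansin of germinating seeds, had 338 FPKM in PAC and 1579 FPKM in MS, 4.67-fold lower. *EXPA8*, *EXPA9*, *EXP3* and *EXPA15* had ratios between -1.09 and -1.52. *EXPA10* had 1075 FPKM in PAC and 1919 FPKM in MS, under 2-fold. *EXPA4* was the only expansin above 0, with a ratio of 0.28.

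Xyloglucan endotransglucosylase/hydrolases (XTH) cut and rejoin the wall polymer xyloglucan. Of 30 XTH genes 16 passed the filter, 10 were lower and 1 was higher, with a median of -1.28. *XTH31* had 55.5 FPKM in PAC and 477 FPKM in MS, 8.6-fold lower. *XTH5* had 17.2 FPKM in PAC and 115 FPKM in MS. *XTH18* had 0.236 FPKM in PAC and 11.4 FPKM in MS, and its paralog *XTH17* was listed at 0 in PAC and had 4.20 FPKM in MS. Both passed the filter only through their level in MS, and without a filter the list median was -1.14. *XTH19* had 130 FPKM in PAC and 317 FPKM in MS. *XTH25* was the exception, with 13.6 FPKM in PAC and 4.20 FPKM in MS. Of the mannanase and cellulose synthesis genes only *MAN7*, a mannanase of germinating seeds, was past 2-fold, with 20.8 FPKM in PAC and 60.6 FPKM in MS. The cellulose synthase genes *CESA1*, *CESA3* and *CESA6* had ratios of -0.54, -0.20 and -0.22.

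The GASA genes encode small cysteine-rich peptides named after a GA-stimulated tomato transcript. They split in direction, with 3 higher and 2 lower of 5 that passed the filter. *GASA4* had 20.3 FPKM in PAC and 396 FPKM in MS, 19.5-fold lower, and *GASA6* had 293 FPKM in PAC and 1260 FPKM in MS. *GASA3* had 25.2 FPKM in PAC and 4.88 FPKM in MS, *GASA2* had 6.15 and 1.2 FPKM, and *GASA1* had 3.9 and 1.31 FPKM, in the same order. The median ratio of the 5 genes was 1.09, and it was -0.20 when only genes with at least 5 FPKM were kept.

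Of 18 epidermis and cuticle genes that passed the filter 9 were lower and none was higher, with a median of -0.96. *CER1*, a gene of wax alkane synthesis, had 0.16 FPKM in PAC and 9.33 FPKM in MS. *PDF1*, an epidermis marker, had 96.9 FPKM in PAC and 260 FPKM in MS. *GPAT4*, *CYP86A4* and *BDG*, genes of cutin synthesis or cuticle formation, had ratios of -1.72, -1.75 and -1.63. The lipid transfer protein gene *LTP2* had 324 FPKM in PAC and 243 FPKM in MS, a ratio of 0.41. The epidermal regulators *ATML1* and *PDF2*, whose transcripts mark the same cell layer, had ratios of -0.49 and -0.08. All 4 embryo epidermis markers, these and *PDF1* included, had ratios below 0, with a median of -0.59. The part of epidermal cell number in these values was not tested.

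Tubulin and cell cycle genes had mostly negative ratios, and water channel genes lay on both sides of 0. Of these lists 3 of 15 tubulins, 4 of 13 aquaporins and 2 of 15 cell cycle genes that passed the filter were past 2-fold, beside 7.56% of all genes. All 15 tubulin genes had ratios below 0, between -1.28 and -0.05, and 3 were past 2-fold: *TUB1*, *TUB7* and *TUB8*. *TUB1* had 14.3 FPKM in PAC and 36.2 FPKM in MS. The plasma membrane aquaporins *PIP1C* and *PIP2;8* had ratios of -1.80 and -1.28, and the 2 higher aquaporins are the storage vacuole genes given above. Of 15 genes of DNA replication and the cell cycle 2 were lower and 13 had ratios below 0, with a median of -0.52. *CYCD1;1*, a D-type cyclin of the entry into the cycle, had 0.459 FPKM in PAC and 3.78 FPKM in MS. *PCNA1*, the sliding clamp of replication, had 13.95 FPKM in PAC and 30.9 FPKM in MS, whereas the 6 MCM helicase genes had ratios between -0.79 and -0.45. The mitotic cyclin *CYCB1;1* had 1.90 FPKM in PAC and 1.95 FPKM in MS.

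Genes of reserve breakdown and photosynthesis were set beside the 7.56% of all genes that were past 2-fold. None of the 19 genes of lipid mobilisation was past 2-fold, with a median ratio of -0.26. *ICL*, the isocitrate lyase of the glyoxylate cycle, was among the most abundant transcripts of the list, with 10278 FPKM in PAC and 10436 FPKM in MS. *MLS*, its partner malate synthase, had 3403 FPKM in PAC and 3077.3 FPKM in MS. None of the 12 Calvin cycle genes was past 2-fold, and 2 of 35 light harvesting and photosystem genes were, both higher: *PSAH-1*, with 11.9 FPKM in PAC and 3.24 FPKM in MS, and *LHCB4.3*, with 41.9 and 18.4 FPKM. Of 245 ribosomal protein genes that passed the filter none was higher and 2 were lower, with a median of -0.16.

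Other pathways were covered by short lists, set beside 3.25% of all genes higher and 4.32% lower. Among flavonoid genes 3 of 9 were higher: *CHI*, *FLS1* and *F3'H*, with ratios of 1.44, 1.16 and 1.13. *CHS*, the entry enzyme, had 278 FPKM in PAC and 181 FPKM in MS. In nitrate use *NIA2*, a nitrate reductase, had 60.1 FPKM in PAC and 25.7 FPKM in MS, and *NIA1* had 380 and 224 FPKM, a ratio of 0.76. In the glucosinolate list 2 of 13 genes passed the filter: *AOP3*, a dioxygenase of side chain modification, had 87.7 FPKM in PAC and 3.88 FPKM in MS, 22.6-fold higher, and *AOP1* had 1.81 and 5.50 FPKM. Among heat shock genes *HSP17.4* and *HSP17.6B* were higher, with ratios of 1.03 and 1.04, and *HSP101*, *HSP90.1* and *HSP70* stayed between -0.20 and 0.43. Of 16 SAUR genes named as such, 2 passed the filter and 1 was higher.

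**Figure D4:**
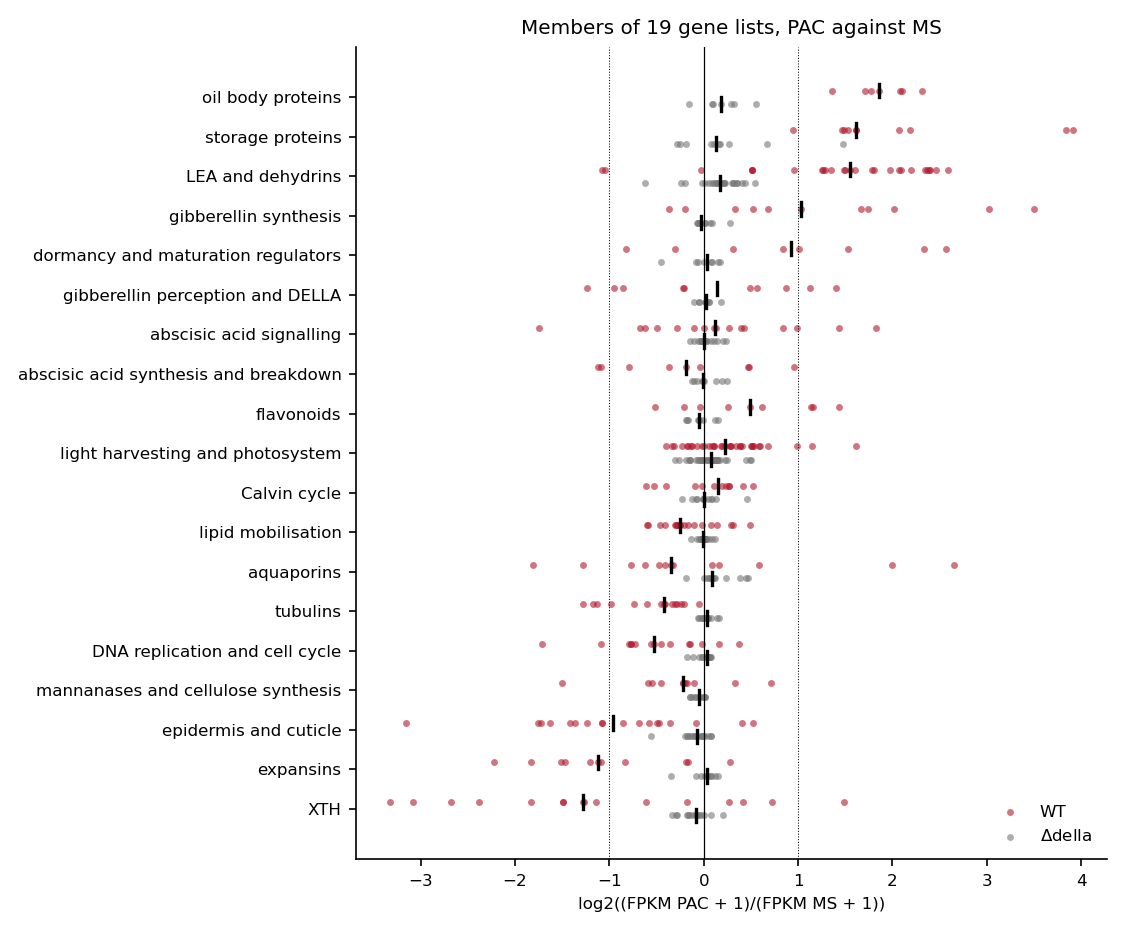
Ratio of PAC to MS for each member that passed the WT filter in the gene lists, WT in red above *Δdella* in grey, with black bars at the list medians and dotted lines at 2-fold. The WT medians run from 1.86 for oil body proteins at the top to -1.28 for XTH at the bottom, and the *Δdella* medians of the same lists lie at 0.18 and -0.09.

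The largest ratios over all genes with at least 5 FPKM in 1 or both groups came mostly from very short genes. The 10 highest and the 10 lowest were all listed at 0 in 1 of the 2 groups, and 17 of the 20 were snoRNA, tRNA or miRNA genes. The snoRNA gene AT4G02555 had 126 FPKM in PAC and was listed at 0 in MS, and the snoRNA gene AT5G66562 was listed at 0 in PAC and had 257 FPKM in MS. *MIR167b* was listed at 0 in PAC and had 79.1 FPKM in MS. Of 73 such genes in the WT comparison 32 of the 41 past 2-fold were listed at 0 in 1 group.

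The following protein-coding genes, all at 1 FPKM or more in PAC and in MS, were picked for their ratios once these had been seen. AT4G18690, annotated as a delay of germination protein, had 56.0 FPKM in PAC and 2.34 FPKM in MS, 23.9-fold higher. *PER1*, a seed peroxiredoxin, had 191 FPKM in PAC and 22.9 FPKM in MS. *SCL3*, a GRAS-family gene of GA signalling, had 82.0 FPKM in PAC and 10.4 FPKM in MS. *HIS1-3*, a linker histone, had 22.1 FPKM in PAC and 2.68 FPKM in MS, and *AOS*, the allene oxide synthase of jasmonate synthesis, had 21.4 FPKM in PAC and 2.46 FPKM in MS.

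On the lower side, AT5G66260, annotated as a SAUR-like auxin-responsive protein, had 3.40 FPKM in PAC and 84.3 FPKM in MS. *ADS1*, a fatty acid desaturase, had 3.57 FPKM in PAC and 58.7 FPKM in MS. The carboxypeptidase gene *scpl44* had 79.2 FPKM in PAC and 796 FPKM in MS. *ETC1*, a small MYB-type gene of epidermal patterning, had 2.87 FPKM in PAC and 36.8 FPKM in MS. *EXO*, a gene of the phosphate-responsive family, had 4.90 FPKM in PAC and 43.7 FPKM in MS.

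By absolute difference in FPKM the 5 largest gains were *CRA1*, *CRU3*, *LCR67*, *DGR2* and AT3G08520. *LCR67*, a defensin-like gene, had 4379 FPKM in PAC and 2387 FPKM in MS, a ratio of 0.88, and *DGR2*, a cell wall protein gene of the DUF642 family, had 3511 FPKM in PAC and 1730 FPKM in MS, a ratio of 1.02. AT3G08520, a ribosomal protein L41 gene, had a ratio of only 0.20. The 5 largest losses were *CP1*, *EXPA1*, *EXPA2*, the snoRNA gene AT2G05765 and *HSC70-1*. *CP1*, a cysteine proteinase, had 420 FPKM in PAC and 2825 FPKM in MS, 6.73-fold lower, and *HSC70-1* had a ratio of -0.45.

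The question of which of these differences depend on low GA was addressed in the experiment by adding GA to PAC. WT PAC against WT PAC + GA shares the PAC libraries with the comparison above, and WT PAC + GA against WT MS shares the MS libraries, so their values are only set side by side. PAC against PAC + GA had 838 of 16815 genes (4.98%) past 2-fold, 329 higher (1.96%) and 509 lower (3.03%). PAC + GA against MS had 163 of 16729 (0.974%) past 2-fold, 91 higher (0.544%) and 72 lower (0.43%). The 405 protein-coding genes called higher had median levels of 24.4 FPKM in PAC, 10.3 FPKM in PAC + GA and 7.498 FPKM in MS. The 509 called lower had 6.39, 16.998 and 20.4 FPKM in the same order.

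Single genes differed in where PAC + GA lay. *GASA6* had 1199 FPKM in PAC + GA and 1260 FPKM in MS, and *EXPA2* had 1686 and 1579 FPKM. *CP1* had 2678 FPKM in PAC + GA and 2825 FPKM in MS. *GA20OX2* had 14.9 FPKM in PAC + GA and 5.43 FPKM in MS, and *CRA1* had 927 and 367 FPKM, so that both lay between PAC and MS. Storage genes did not share this order: *SESA5* had 41.4 FPKM in PAC + GA and 81.0 FPKM in MS, and *PAP85* had 27.0 and 39.2 FPKM, both below MS. The storage list summed to 1502 FPKM in PAC + GA against 939 FPKM in MS, mostly through *CRA1* and *CRU3*.

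In *Δdella* seeds few of the same genes were past 2-fold with PAC. The 405 genes called higher in WT had a median ratio of 1.41 in WT and of 0.04 in *Δdella* seeds, where 6 were past 2-fold higher and 2 lower. The 509 called lower had medians of -1.39 and -0.02, with 1 past 2-fold higher and none lower in the mutant. The WT medians follow from the 2-fold call that picked these genes. Over all protein-coding genes that passed the *Δdella* filter, 74 of 16497 (0.449%) were past 2-fold in *Δdella* seeds. Among those at 1 FPKM or more in both *Δdella* groups, 17 of 16086 (0.106%) were. The difference between genotypes was not tested, as each group has 1 value per gene. *GA20OX3* had 7.69 FPKM in *Δdella* PAC and 6.18 FPKM in *Δdella* MS seeds, *CRA1* 24.5 and 22.7 FPKM, *XTH31* 501 and 530 FPKM, and *GASA4* 593 and 635 FPKM, in the same order.

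The median levels of both gene sets in the mutant also lay beyond those of WT MS seeds, though not every gene did. The median of the 405 genes was 4.84 FPKM in *Δdella* PAC and 4.53 FPKM in *Δdella* MS, against 7.498 FPKM in WT MS. The median of the 509 genes was 30.8 and 31.6 FPKM, against 20.4 FPKM in WT MS. *GA20OX2* was at 0.126 FPKM in *Δdella* PAC and 0.174 FPKM in *Δdella* MS, far under its 5.43 FPKM in WT MS, and *CER1* was at 96.4 and 103 FPKM against 9.33 FPKM. Of the members in the lists, *SESA4* was the storage gene past 2-fold in both genotypes, with 22.8 FPKM in *Δdella* PAC and 7.58 FPKM in *Δdella* MS, a ratio of 1.47 as in WT. Over all genes 44 were past 2-fold in both genotypes, 19 of them in opposite directions. Of these 19, 11 were protein-coding and 7 were snoRNA, miRNA or tRNA genes. Of those in the same direction 10 were protein-coding. The share of all genes past 2-fold was 7.56% in WT and 0.794% in *Δdella* seeds.

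Promoter letters were then counted in the 250 bases before each protein-coding gene. ACGTG was found in 38.9% of 507 promoters of genes higher in PAC, 26.1% of 689 promoters of lower genes and 23.3% of the 16338 promoters of genes that passed the filter. CATGCA was found in 17.55%, 12.5% and 7.14% of the same sets. Of all 26686 promoters, genes under the filter included, 23.1% held ACGTG and 8.51% held CATGCA. In the storage, LEA and oil body lists 32 of 44 promoters held ACGTG and 23 held CATGCA, and in the expansin and XTH lists 2 and 4 of 27 did. As for the sequences printed above, the windows of *CRU3*, *CRA1* and the lower gene *EXPA2* held the RY core, and those of *CRU3*, *EM1* and *EM6* held the ABA response core.

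The share of genes higher in PAC differed with the number of copies. Among genes with 0 copies of ACGTG 2.47% were higher, and among genes with 3 or more copies 9.92% were, while the share lower was 4.06% and 3.84%. With 0 copies of CATGCA 2.76% were higher and with 2 or more copies 20.1% were, while the share lower was 3.97% and 8.82%. Matches on opposite strands can share letters and were each counted, so 2 or more copies of either core need not be separate sites. Of 332 genes with both motifs 16.0% were higher and 6.33% were lower. The other letters searched were the telo box AAACCCT (6.79% of promoters that passed the filter and 7.28% of all promoters), the L1 box TAAATGCA (1.57% and 1.59%), the core TAACAA of a cereal GA response element (30.2% and 30.8%) and the site II core GGCCCA (18.5% and 13.9%). TAACAA was found in 27.6% of the higher and 31.5% of the lower set, and GGCCCA in 9.47% and 5.95%. AAACCCT was found in 3.55% and 4.06%, and TAAATGCA in 2.37% and 2.76%. Motifs were searched on both strands, TAAATGCA and CATGCA share their last letters, and nothing about the factors that bind them was measured.

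**Figure D5:**
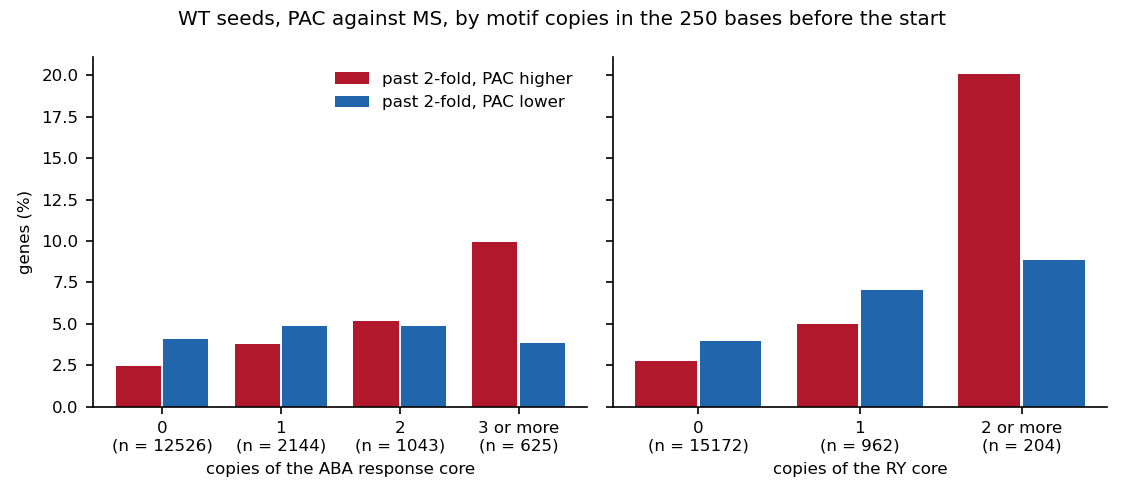
Share of genes (%) past 2-fold higher (red) and lower (blue) in WT PAC against WT MS, by the number of copies of the ABA response core on the left and of the RY core on the right in the 250 bases before the start, with the number of genes under each pair of bars. The red bar reaches 9.92% at 3 or more copies of the ABA response core and 20.1% at 2 or more copies of the RY core. Copies on opposite strands can overlap and need not be separate sites.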

How the data were processed

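RNA of seeds was sequenced as single-end 50 bp reads from stranded mRNA libraries. Per the paper's methods and the submitters' processing notes, the authors aligned the reads to the TAIR10 build using TopHat and computed expression in Galaxy with Cuffdiff. For tool versions and the library normalization behind FPKM the sources used here give nothing. The deposited FPKM values, 1 per gene and group for 33557 genes and 10 groups, pool the 2 replicates. The deposited table also holds the authors' fold changes, statistics, p-values and q-values for 45 pairs of groups, which were not used. FPKM of a group summed to 882351 in WT PAC and 925124 in WT MS, and the depth in reads is unknown.

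Ratios were computed with 1 FPKM added, for genes with at least 1 FPKM in 1 or both groups, and called at 2-fold, with numpy 2.4.6 and pandas 2.3.3 under Python 3.11.15, and plotted with matplotlib 3.10.9. The calling step was run on simulated data without noise, with changes past the threshold. Such a run checks only the calculation and cannot show how often pooled libraries give false calls. No test was possible with 1 value per group. In the RefSeq annotation of TAIR10.1, 32809 identifiers were matched by locus tag for gene names and types. Promoters were read from that build. Of 28626 loci with a single gene, 27196 had both ends within 500 bases of it. Gene lists, members and motifs were chosen with earlier results of these data known.

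Genes named are the 10 largest rises and 10 largest falls at 5 FPKM or more, in each list the largest rise, the largest fall, the most abundant member and up to 6 others past 2-fold, gibberellin or abscisic acid list members at 1 FPKM or more, which could be named but need not be, and the 5 largest FPKM differences in each direction. Others are given as list values or were picked once their values had been seen. Alternatives were an added 0.1 or 5 FPKM, no filter or 5 FPKM, rescaling to a common sum, centring on the median, and 3-fold. Counts over protein-coding genes, with and without 1 FPKM in both groups, were added after seeing the data.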

Additional observations from a re-analysis of the deposited data

Results flagged for a closer look

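Among the genes named, 4 genes lay past 2-fold in both genotypes but in opposite directions under PAC, each listed at 0 in some groups. The difference between genotypes was not tested. The ratios in WT seeds were 6.77 for the snoRNA gene AT5G13225, 5.23 for the snoRNA gene AT2G17295, 4.97 for AT5G03204 and -6.16 for the snoRNA gene *U60.2F*. In *Δdella* seeds they were -7.42, -5.51, -3.38 and 7.12 in the same order. With PAC + GA all 4 were listed at 0 in WT seeds.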

How the results depend on the processing

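No paired analysis was possible because the deposited columns pool the replicates of a group, and for the same reason no replicate could be left out. Counts of genes past 2-fold moved with the pseudocount, the threshold and the genes counted, while centring on the median moved none of them by over 1.5 times. With 0.1 FPKM added, 1831 genes were past 2-fold for WT PAC against MS and 208 for *Δdella* PAC against MS. WT PAC against PAC + GA then had 1261, and WT PAC + GA against MS had 305. With 5 FPKM added, 606 were past 2-fold for WT PAC against MS, 70 for *Δdella*, 397 for PAC against PAC + GA and 61 for PAC + GA against MS. At 3-fold these 4 counts were 470, 83, 319 and 71. At 5 FPKM or more they were 980, 81, 614 and 100. Over protein-coding genes alone they were 1196, 74, 780 and 104, and with 1 FPKM in both groups 914, 17, 574 and 55.

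The median ratio of dormancy and maturation regulators went past 1 with 0.1 FPKM added (1.83), at 5 FPKM or more (1.52) and after rescaling (1.01), but lay at 0.30 with 5 FPKM added and 0.31 without a filter, against 0.93 as reported. That of epidermis and cuticle genes went past -1 with 0.1 FPKM added (-1.18) and at 5 FPKM or more (-1.08). With 5 FPKM added the medians of GA synthesis (0.64), XTH (-0.93) and the GASA list (0.50) lay inside 2-fold, and without a filter those of expansins (-0.71) and the GASA list (0.58) did. The median of the GASA list, 1.09 over 5 genes, turned to -0.20 at 5 FPKM or more, and that of the glucosinolate list, 1.49 over 2 genes, to -0.023 without a filter. *GA2OX8*, the single GA breakdown gene, stood at -1.11, against -0.30 with 5 FPKM added and a list median of -0.039 without a filter, and the 2 SAUR genes had a median of 1.48 with 0.1 FPKM added. The cause was not tested. Low genes and short RNAs are the least certain values here, and no value here can be set against the spread between replicates.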

Other observations

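The gene families below were picked after their values were seen, by the words of the RefSeq product names, and are given as counts past 2-fold of those at 1 FPKM or more in WT PAC or WT MS. Over all genes 3.25% were higher and 4.32% were lower. In the cell wall and secretory families more genes were past 2-fold lower than higher, though most members of several families lay under 2-fold. Of 36 GDSL-type lipases 12 were lower and none was higher, for example AT4G26790, with 3.86 FPKM in PAC and 50.5 FPKM in MS. Of 30 pectin lyase-like genes 10 were lower and none was higher, and of 26 pectin methylesterase or invertase inhibitor genes 6 were lower and none was higher. Of 12 class III peroxidases 7 were lower and 2 were higher, and the higher *PRXR1* had 119 FPKM in PAC and 55.1 FPKM in MS. Of 31 arabinogalactan proteins 8 were lower and 1 was higher: *AGP31* had 32.7 FPKM in PAC and 148 FPKM in MS, and *AGP7* had 54.9 FPKM in PAC and 18.01 FPKM in MS.

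Of 17 serine carboxypeptidase-like genes 7 were lower and 1 was higher, with *scpl48* at 14.9 FPKM in PAC and 142 FPKM in MS. Of 13 ketoacyl-CoA synthases, which lengthen fatty acids for waxes, 6 were lower and 1 was higher, and *KCS8* had 5.22 FPKM in PAC and 48.9 FPKM in MS. SAUR-like genes, named for their response to auxin, had 10 lower and 4 higher of 24. Cytochromes P450 went both ways, with 15 lower and 7 higher of 81: *CYP81F4* had 0.288 FPKM in PAC and 26.6 FPKM in MS, and *CYP702A6* had 61.8 FPKM in PAC and 11.04 FPKM in MS. Of 18 genes named as cupin or cruciferin, which include the 12S globulins, 6 were higher and none was lower. The higher ones include *CRA1* and *CRU3*, already counted in the storage list.

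Other families were counted beside the 7.56% of all genes past 2-fold in either direction. Of 154 F-box genes 3 were higher and 3 were lower, of 22 WRKY factors 1 was higher and 1 was lower, and none of 13 response regulators or 14 kinesins, which are motor proteins, was past 2-fold. The higher WRKY gene was *WRKY15*, with 41.3 FPKM in PAC and 17.9 FPKM in MS, and the lower was *TTG2*, a seed coat and trichome gene, with 2.68 FPKM in PAC and 7.14 FPKM in MS.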
